A study of Mus musculus with 5 samples.

Results

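Polycomb and trithorax proteins keep the Hox clusters and other developmental genes off or on through marks on histones. Polycomb repressive complex PRC2, built on Ezh2, Eed and Suz12, methylates H3K27. PRC1, built on the RING ligases Ring1 and Rnf2 and one of several PCGF proteins, adds ubiquitin to histone H2A. Trithorax proteins such as Kmt2a methylate H3K4 at active genes, and Kdm6a and Kdm6b take the H3K27 methyl groups off again. In limb buds this system holds Hox genes silent until their time and place of expression. The 32 regulators described here were picked by name from these families. They were read on every probe set that carries only that gene's symbol, and 31 of the 32 had such a probe set, out of 18193 genes with one on the array. Rybp had none, because its probe sets also carry the symbol of a pseudogene.

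The RNA came from forelimb buds of C57Bl/6 mouse embryos at E11.5, with 2 arrays from double mutants (Sost-/-; Sostdc1-/-) and 3 from wild type embryos. Sost and Sostdc1 encode secreted antagonists of Wnt signalling, and Sostdc1 also binds BMPs. Per the design text embryos were not pooled, so arrays were taken as separate animals. The labels do not state the extent of each deletion. The values are log2 intensities of an Affymetrix array on which a gene can have several probe sets, each a set of short probes against one part of the transcript. Differences are double mutant minus wild type with limma's standard error (SE). A call means an adjusted p under 0.05 over all 45037 probe sets. The number of arrays limits the precision.

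Array medians lay between 39.4 and 44.4 on the linear scale, and Pearson r over probe sets was 0.991 to 0.995 for arrays of the same genotype and 0.954 to 0.969 for arrays of different genotype. The groups differed in more than genotype. The poly-A spike-in Dap, added before labelling, averaged 7.09 ± 0.27 in double mutants (SD, n = 2) and 3.30 ± 0.06 in wild type (SD, n = 3). The 3' minus 5' difference of Gapdh, a readout of RNA integrity and labelling, averaged 0.21 ± 0.08 in double mutants and −0.10 ± 0.04 in wild type (two-sided exact permutation p = 0.1, the smallest that 2 against 3 arrays allow). That of Actb averaged 0.60 ± 0.07 in double mutants, against 0.37 ± 0.27 in wild type (exact permutation p = 0.4). Preparation and genotype therefore cannot be told apart in any difference below. Xist, the RNA of the inactive X chromosome, was high in both double mutants (12.37 and 11.75) and in wild type replicate 1 (12.28), and low in the other wild type arrays (5.73 and 5.70). The Y-linked Eif2s3y stood at 8.36 in either double mutant, against 3.20 in wild type replicate 1 and 8.49 and 8.42 in the other wild type arrays. Both double mutant arrays thus held Xist and Y-linked signal together, and whether each held a single embryo was not tested.

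Judged by the brightest probe set per gene, differences ran from −1.60 for Pcgf2 to 0.90 for Suz12. Of 31 measured regulators 2 rose, Suz12 and Pcgf3, and 2 fell, Pcgf1 and Pcgf2, and the other 27 were not called. That is 12.9% called, against 14.7% of the brightest probe sets of all genes (6.56% higher and 8.14% lower). The median difference of the 31 was 0.04, and that of all genes −0.02. The arrays of the 2 groups did not overlap for 18 of the 31, where 43.2% of all genes did not overlap. Only Cbx7 had a mean level below the median of all probe sets (5.41). The plot of brightest probe sets by array shows each regulator.

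**Figure D1:**
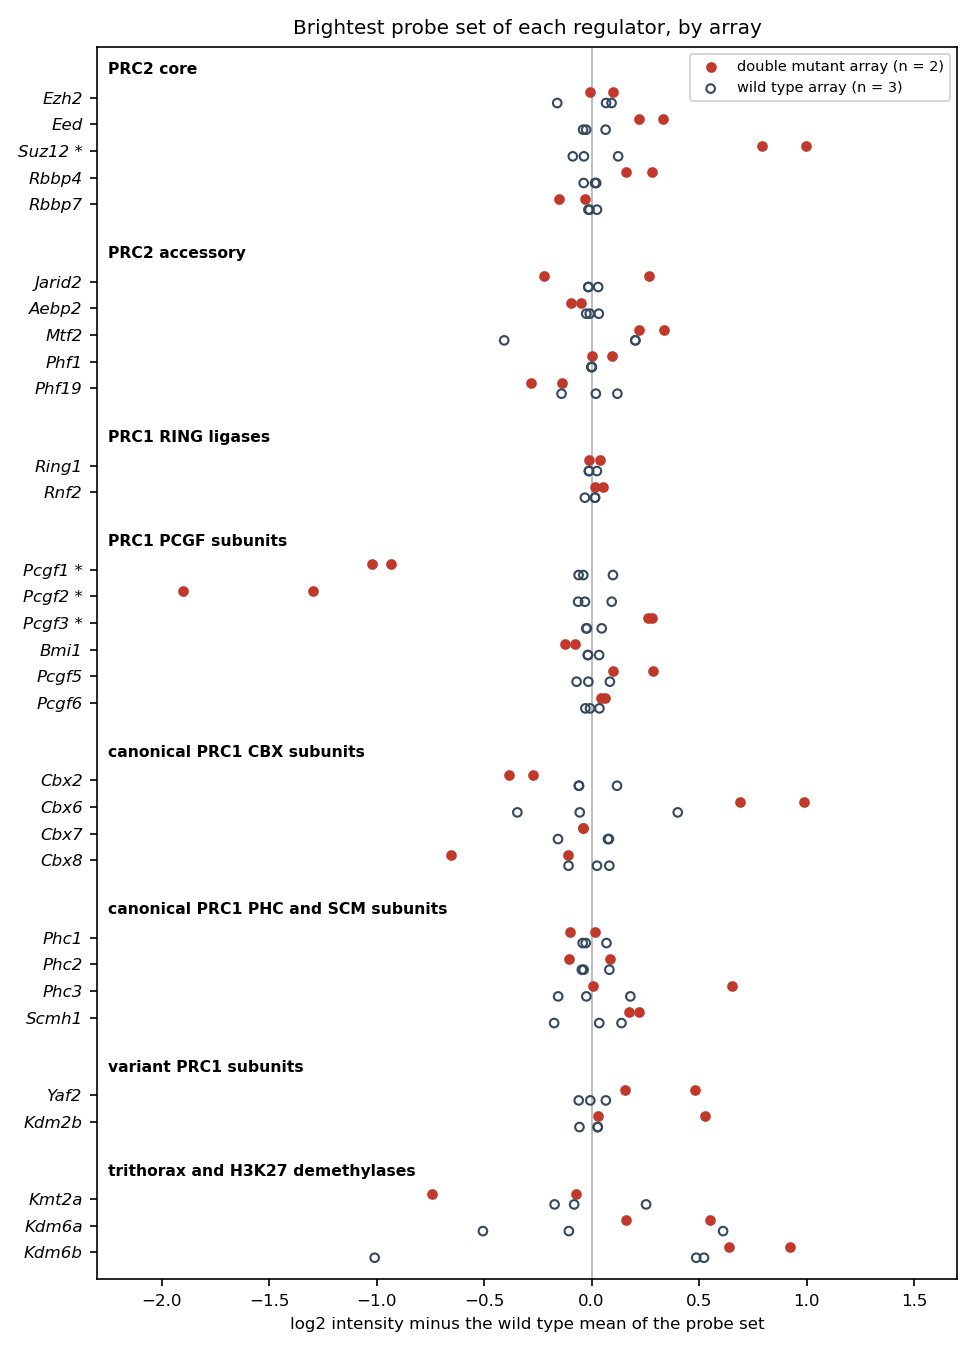
Log2 intensity of the brightest probe set of 31 regulators in each array, minus that probe set's wild type mean. Filled red points are the 2 double mutant arrays, open points the 3 wild type arrays, genes are grouped by complex, and an asterisk marks an adjusted p under 0.05. Pcgf1 and Pcgf2 lie left of 0 and Suz12 and Pcgf3 right of it, while Ezh2, Ring1, Rnf2 and Phc1 overlap.

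Suz12 is the PRC2 subunit that holds the complex together. On its brightest probe set it stood at 10.62 and 10.83 in double mutants, against 9.95, 9.74 and 9.79 in wild type. Both double mutant arrays lay above every wild type array, and the difference was 0.90 ± 0.10 (SE), or 1.86-fold (adjusted p = 0.0128). The other probe sets did not follow at that size. The second brightest stood at 9.68 and 9.92 in double mutants and 9.81, 9.58 and 9.50 in wild type, which overlap. It differed by 0.17 ± 0.13 (adjusted p = 0.430), and 4 further Suz12 probe sets by −0.01 to 0.36 with 0 of 4 called. The called probe set has a name ending in s_at. The brightest Suz12 probe set with a plain _at name, among these 4, differed by 0.03 ± 0.14 (adjusted p = 0.917). The rise of Suz12 thus depends on the probe set chosen.

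Pcgf1, Pcgf2 and Pcgf3 are alternative PCGF subunits, and which one a PRC1 complex carries sets its subtype. Pcgf1 belongs to the variant complex with Kdm2b, while Pcgf2 (also called Mel18) and Bmi1 form the canonical complexes that carry CBX and PHC proteins. Pcgf1, with 1 probe set, stood at 6.93 and 6.84 in double mutants, against 7.96, 7.82 and 7.80 in wild type. The groups were well apart, and the fall was −0.98 ± 0.07 (SE, adjusted p = 0.00732). Pcgf2 stood at 5.96 and 6.57 in double mutants, against 7.80, 7.95 and 7.83 in wild type, a fall of −1.60 ± 0.20 (SE) or 3.03-fold (adjusted p = 0.0150). Its second probe set also fell, at 6.00 and 5.63 in double mutants and 6.36, 6.59 and 6.62 in wild type (−0.71 ± 0.15, adjusted p = 0.0441). Among the regulators with several probe sets, Pcgf2 was the 1 gene called the same way on all of them.

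Pcgf3, part of variant PRC1, stood at 10.60 and 10.58 in double mutants and 10.37, 10.30 and 10.30 in wild type. This small rise of 0.27 ± 0.05 (SE, adjusted p = 0.0317) was the least of the 4 called differences. With the arrays set to equal medians it was 0.18 and not called (adjusted p = 0.216). Its second probe set held 1 value, 6.36, in all 5 arrays, and the third stood at −0.54 ± 0.14 (adjusted p = 0.0678).

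Leaving out single arrays, the 4 differences kept their sign and the calls did not last in every fit. Without wild type replicate 2 limma called 0 of all 45037 probe sets, so a lost call there is no result about these genes. A fit without 1 double mutant array leaves 1 array in that group, so a lost call there is no such result either. The Suz12 difference lay between 0.79 and 1.0, that of Pcgf1 between −1.02 and −0.93, that of Pcgf2 between −1.90 and −1.30 and that of Pcgf3 between 0.26 and 0.29. Suz12 was not called without double mutant replicate 1 (adjusted p = 0.0586), double mutant replicate 2 (0.0595) or wild type replicate 2 (0.0753). Pcgf1 was not called without double mutant replicate 1 (0.0519) or wild type replicate 2 (0.0597). Pcgf2 was called only without double mutant replicate 2 (0.0370), with adjusted p of 0.0511 to 0.0907 for the other 4 arrays. Pcgf3 was called in none of the 5 (0.0585 to 0.112). With the mean 3' minus 5' value of Gapdh and Actb as a covariate limma called 0 of all 45037 probe sets, with 21.4% at an unadjusted p under 0.05, so the loss of the 4 calls there is no result about these genes. The differences in that fit were 1.02 for Suz12 (adjusted p = 0.104), −0.90 for Pcgf1 (0.0867), −1.41 for Pcgf2 (0.16) and 0.30 for Pcgf3 (0.202).

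Kdm2b and Kmt2a bind DNA at CpG dinucleotides that lack methylation, and CpG-rich promoters are where Polycomb and trithorax proteins gather. The promoters of the called genes are therefore shown, from RefSeq on GRCm38.p6, with each CpG in capitals. The windows run from 250 bases before to 50 after an annotated start, 5′ to 3′ on the gene's strand. Suz12 lies at chr11:79992856-79993155 on the plus strand, Pcgf3 at chr5:108461009-108461308 on the plus strand and Pcgf2 at chr11:97699599-97699898 on the minus strand. No window for Pcgf1 is shown.
Suz12: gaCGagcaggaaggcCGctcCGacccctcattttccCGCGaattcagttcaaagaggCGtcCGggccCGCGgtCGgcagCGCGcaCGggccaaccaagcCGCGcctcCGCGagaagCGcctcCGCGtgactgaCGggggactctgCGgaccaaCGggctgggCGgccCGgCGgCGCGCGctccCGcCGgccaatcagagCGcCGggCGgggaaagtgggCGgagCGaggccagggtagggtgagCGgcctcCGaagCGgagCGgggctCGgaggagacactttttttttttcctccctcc
Pcgf3: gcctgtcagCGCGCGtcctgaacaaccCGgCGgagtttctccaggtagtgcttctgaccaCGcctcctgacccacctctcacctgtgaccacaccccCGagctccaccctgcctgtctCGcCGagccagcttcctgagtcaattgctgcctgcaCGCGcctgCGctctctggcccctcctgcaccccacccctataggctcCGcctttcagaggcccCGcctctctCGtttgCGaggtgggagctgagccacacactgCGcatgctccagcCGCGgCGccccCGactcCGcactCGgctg
Pcgf2: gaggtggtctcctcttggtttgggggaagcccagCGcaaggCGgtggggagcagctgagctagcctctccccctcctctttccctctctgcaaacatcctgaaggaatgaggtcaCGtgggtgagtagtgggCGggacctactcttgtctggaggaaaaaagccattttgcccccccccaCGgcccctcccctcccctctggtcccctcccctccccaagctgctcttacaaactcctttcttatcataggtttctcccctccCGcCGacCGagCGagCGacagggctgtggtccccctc

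These windows hold 41 CpGs in Suz12, 23 in Pcgf3 and 10 in Pcgf2. The Pcgf2 window lies inside the gene, whose annotated 5′ end is at position 97702434. Its CpG count is therefore not that of the outermost start, unlike those of Suz12 and Pcgf3. Windows were found for 27 of the 32 regulators, 39 in all, with a median of 24 CpGs, against 7 over all 32851 windows of the table. A GC box (GGGGCGGGG, either strand) was found in 14 of the 39 (35.9%), against 11.4% of all windows. The GLI motif GACCACCCA was in 0 of 39 (0.253% of all windows) and the TCF/LEF motif CTTTGAT in 1 of 39, in Phc1 (3.73% of all windows). The E2F motif TTCCCGCC was in 2 of 39 (2.19% of all windows). None of the 4 motifs contains another, and none was in the 3 windows shown.

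The catalytic core of PRC2 was not called apart from Suz12. Ezh2, the methyltransferase, stood at 11.502 and 11.61 in double mutants, against 11.35, 11.58 and 11.60 in wild type. The groups overlapped, and the difference was 0.04 ± 0.10 with a 95% interval of −0.23 to 0.32 (adjusted p = 0.793). Eed, which reads the mark that Ezh2 writes, stood at 10.81 and 10.92 in double mutants and 10.55, 10.65 and 10.56 in wild type. It did not overlap but missed the threshold (0.28 ± 0.06, adjusted p = 0.0565). Rbbp7, a histone-binding subunit shared with other complexes, differed by −0.09 and −0.11 on its 2 probe sets, neither called.

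Rbbp4, the paralog of Rbbp7, gave opposite answers on different probe sets. On the brightest it stood at 13.37 and 13.49 in double mutants and 13.23, 13.18 and 13.23 in wild type (0.22 ± 0.06, adjusted p = 0.0790). On the third it stood at 9.69 and 10.41 in double mutants, against 12.32, 12.18 and 11.54 in wild type, a fall of −1.97 ± 0.35 (adjusted p = 0.0304). On the dimmest it stood at 9.92 and 9.64 in double mutants, against 6.95, 5.99 and 5.65 in wild type, a rise of 3.59 ± 0.43 (adjusted p = 0.0142). This was the largest rise among the 82 probe sets of the regulators. The groups did not overlap on any of the 4 Rbbp4 probe sets. The brightest belongs to a class of probe set (names ending in x_at) whose probes may also bind other transcripts.

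Of the PRC2 accessory subunits 0 of 5 were called on the brightest probe set (14.7% of all genes were), and 4 of 12 other probe sets rose (8.66% of such probe sets over all genes did). Mtf2, a reader that helps bring PRC2 to CpG-rich DNA, rose on 2 of its 6 probe sets. On the second brightest it stood at 10.91 and 10.87 in double mutants and 9.84, 10.14 and 10.31 in wild type (0.79 ± 0.15, adjusted p = 0.0372). On the third it stood at 10.82 and 10.50 in double mutants and 9.97, 9.76 and 9.49 in wild type (0.92 ± 0.19, adjusted p = 0.0411). Its brightest probe set stood at 11.65 and 11.53 in double mutants and 11.51, 11.51 and 10.90 in wild type, where wild type replicate 3 was low (0.28 ± 0.23, adjusted p = 0.450).

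Aebp2, which with Jarid2 defines one form of PRC2, stood at 10.13 and 10.18 in double mutants and 10.22, 10.20 and 10.26 in wild type on its brightest probe set (−0.07 ± 0.05, adjusted p = 0.371). A dimmer one stood at 8.36 and 7.71 in double mutants, against 6.10, 5.69 and 5.75 in wild type, a rise of 2.19 ± 0.25 (adjusted p = 0.0126). The dimmest rose by 0.70 ± 0.15 (adjusted p = 0.0463). Jarid2 differed by 0.02 on both of its brighter probe sets and by −0.48 on the third, and Phf1 by 0.05. Phf19, like Mtf2 and Phf1 a Polycomb-like protein, differed by −0.21 and −0.20. None of these 6 probe sets was called.

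On the brightest probe sets of the RING ligases the groups overlapped. Ring1 stood at 7.20 and 7.15 in double mutants and 7.15, 7.19 and 7.15 in wild type (0.01 ± 0.05, 95% interval −0.11 to 0.14). Rnf2 (Ring1b), the main ligase of PRC1 in mouse embryos, stood at 11.52 and 11.56 in double mutants and 11.52, 11.48 and 11.52 in wild type (0.03 ± 0.05, 95% interval −0.09 to 0.16). The other 4 Rnf2 probe sets all pointed down. On the second brightest Rnf2 stood at 10.41 and 10.46 in double mutants, against 11.22, 11.22 and 11.11 in wild type, a fall of −0.75 ± 0.06 (adjusted p = 0.00790). On the third it fell by −1.94 ± 0.29 (adjusted p = 0.0211), and the remaining 2 were not called. The change of the brightest Rnf2 probe set over the second was 0.78 ± 0.11 (adjusted p = 0.00571), so they responded unequally.

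The other PCGF genes showed the same kind of split. Bmi1 (Pcgf4) stood at 10.59 and 10.64 in double mutants and 10.69, 10.75 and 10.69 in wild type on its brightest probe set (−0.10 ± 0.05, adjusted p = 0.244). On the other it rose, with 9.96 and 10.12 in double mutants and 9.63, 9.72 and 9.74 in wild type (0.35 ± 0.07, adjusted p = 0.0463). Groups did not overlap on either, and their directions were opposite. Pcgf5, a close relative of Pcgf3, stood at 5.98 and 6.17 in double mutants and 5.97, 5.87 and 5.81 in wild type on the brightest (0.19 ± 0.09, adjusted p = 0.223). On the second brightest it stood at 6.65 and 6.35 in double mutants, against 4.70, 5.0 and 5.08 in wild type, a rise of 1.58 ± 0.16 (adjusted p = 0.0109).

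Pcgf6, a subunit of the variant complex with E2f6 and Mga, was called in both directions. Its brightest probe set stood at 9.73 and 9.74 in double mutants and 9.68, 9.65 and 9.72 in wild type (0.05 ± 0.05, adjusted p = 0.497). On the second brightest it fell to 6.25 and 6.77 in double mutants, against 7.89, 7.74 and 7.65 in wild type (−1.25 ± 0.18, adjusted p = 0.0204). On the third it rose to 6.96 and 6.66 in double mutants, against 5.50, 5.49 and 5.40 in wild type (1.34 ± 0.11, adjusted p = 0.00798). Rbbp4 and Pcgf6 were the 2 of 26 regulators with several probe sets that were called both ways, or 7.69%, against 5.05% of all such genes.

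CBX proteins read methylated H3K27 and so tie canonical PRC1 to PRC2. Of 4 CBX genes 0 were called on the brightest probe set, where 14.7% of all genes were. Cbx2 stood at 10.02 and 10.13 in double mutants and 10.34, 10.34 and 10.52 in wild type, apart but not called (−0.33 ± 0.08, adjusted p = 0.0684). Its second probe set stood at 3.89 and 3.66 in double mutants, against 7.79, 7.77 and 7.03 in wild type. That fall of −3.75 ± 0.28 (adjusted p = 0.00732) was the largest difference of the 82 probe sets, and its double mutant level is dim, which leaves its size uncertain. Cbx8, another reader of this family, was also called on its second probe set alone. Its brightest probe set stood at 6.52 and 7.06 in double mutants and 7.20, 7.25 and 7.06 in wild type (−0.38 ± 0.18, adjusted p = 0.252). Its second stood at 4.20 and 4.22 in double mutants, against 5.68, 5.61 and 5.22 in wild type, a fall of −1.30 ± 0.16 (adjusted p = 0.0150).

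Cbx6 stood at 9.44 and 9.15 in double mutants and 8.11, 8.40 and 8.86 in wild type, and missed the threshold (0.84 ± 0.26, adjusted p = 0.102). Cbx7 was dim on all 3 probe sets (−0.07 to 0.14, 0 called). Among the PHC and SCM subunits, which let PRC1 complexes cluster, 0 of 4 were called on the brightest probe set (14.7% of all genes were). Phc1 and Phc2 differed by −0.04 and −0.01 there, Phc3 by 0.33 and Scmh1 by 0.20. A dim Scmh1 probe set stood at 6.29 and 5.33 in double mutants, against 3.41, 3.56 and 3.56 in wild type, a rise of 2.30 ± 0.31 (adjusted p = 0.0170). Of the variant PRC1 subunits Yaf2 differed by 0.32 ± 0.12 and Kdm2b by 0.28 ± 0.16 on the brightest probe sets. Neither was called, nor were their second ones.

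The trithorax methyltransferase gene and the demethylase genes were not called on their brightest probe sets. Kmt2a, which maintains Hox expression, stood at 8.45 and 7.78 in double mutants and 8.35, 8.44 and 8.77 in wild type. The groups overlapped, with a difference of −0.41 ± 0.25 (adjusted p = 0.347). Kdm6b stood at 10.48 and 10.20 in double mutants and 10.04, 10.08 and 8.55 in wild type, and wild type replicate 3 lay far below the others (0.78 ± 0.55, adjusted p = 0.394). On the second brightest Kdm6b rose, with 10.16 and 10.04 in double mutants and 9.80, 9.62 and 9.71 in wild type (0.39 ± 0.08, adjusted p = 0.0397). That probe set is of the x_at class, whose probes may also bind other transcripts. The third differed by 0.83 ± 0.31 (adjusted p = 0.159). A probe set shared with 1700064E03Rik fell (−2.01 ± 0.29, adjusted p = 0.0198).

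Kdm6a is X-linked and in mice is also expressed from the inactive X chromosome. Its brightest probe set stood at 9.48 and 9.09 in double mutants and 9.55, 8.83 and 8.43 in wild type replicates 1, 2 and 3 (0.35 ± 0.38, adjusted p = 0.561). The highest wild type value was that of replicate 1, the wild type array with high Xist. On the next probe set Kdm6a stood at 9.30 and 9.37 in double mutants and 9.04, 8.63 and 8.75 in wild type (0.53 ± 0.14, adjusted p = 0.0725). On a dim further one it stood at 5.93 and 5.62 in double mutants and 4.68, 3.90 and 3.97 in wild type, a rise of 1.59 ± 0.29 (adjusted p = 0.0328). Wild type replicate 1 was again the highest wild type array on both. Without it the difference on the brightest probe set was 0.66 (adjusted p = 0.201), and with the Y-linked level as a covariate 0.63 (adjusted p = 0.187). Both double mutant arrays had high Xist and Y-linked signal together. Dropping replicate 1 left only wild type arrays with low Xist, and the covariate groups the double mutants with those arrays. Neither fit can therefore separate embryo sex from genotype, and the part of embryo sex in Kdm6a was not tested. Uty, its Y-linked homolog, had 6.60 and 7.05 in double mutants, against 3.43, 7.02 and 7.07 in wild type.

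**Figure D2:**
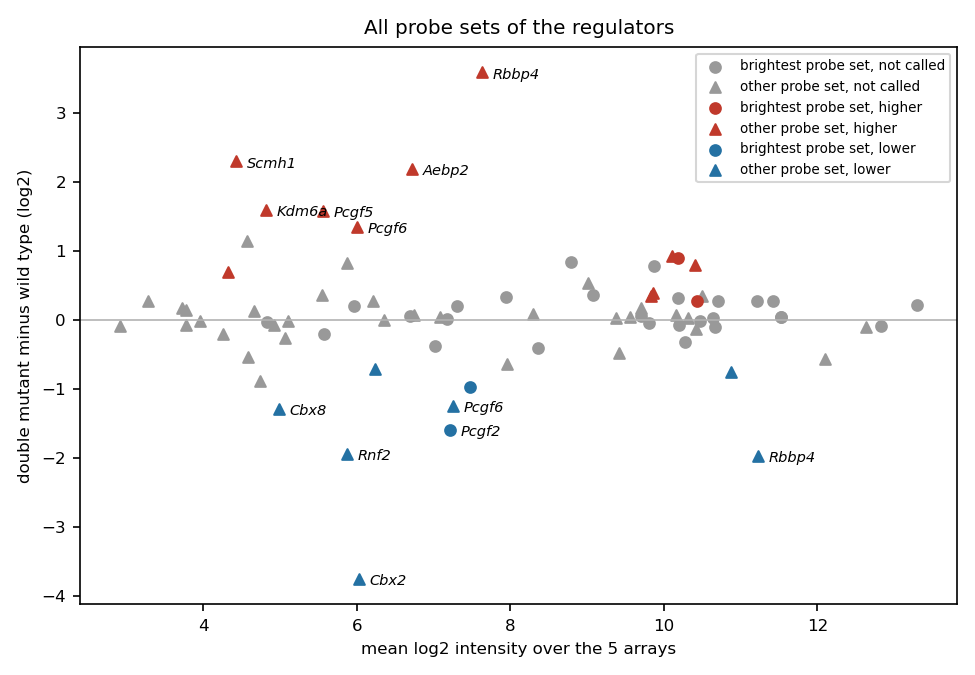
Difference between double mutant and wild type (log2) against mean log2 intensity for the 82 probe sets of the regulators. Circles are the brightest probe set of each gene and triangles the others, red is called higher, blue called lower and grey not called, and called genes with a change above 1.2 are named. The largest differences, from −3.75 for Cbx2 to 3.59 for Rbbp4, are on triangles.

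Calls were thus more frequent away from the brightest probe set. Of the 51 other probe sets 11 rose and 7 fell, which is 35.3%, against 23.6% of such probe sets over all genes (8.66% higher and 15.0% lower). Over all 82 probe sets 13 rose and 9 fell, or 26.8%, against 18.2% of all probe sets (8.70% higher and 9.52% lower). The arrays did not overlap on 50 of the 82, against 45.2% of all probe sets, nor on 32 of the 51, against 50.7% of such probe sets. The median size of the difference was 0.22 on the brightest and 0.36 on the other probe sets of the regulators, and 0.16 and 0.24 over all genes. Of the 51, 18 had a mean level below the median of all probe sets, and 4 of the 18 called ones were among them. By gene, 16 of 31 regulators had at least 1 probe set called, against 27.7% of all genes, but 26 of the 31 had several probe sets, against 9010 of 18193 genes. In 12 of those 26 another probe set was called and the brightest was not, or 46.2%, against 26.3% of all genes with several. The 22 called probe sets kept their sign with any 1 array left out. Limma called 0 of the 82 without double mutant replicate 1 or wild type replicate 2, with 30 at an unadjusted p under 0.05 in each case, and in both fits it called 0 of all 45037 probe sets. It called 3 higher and 4 lower without double mutant replicate 2, 7 and 3 without wild type replicate 1, and 6 and 6 without wild type replicate 3.

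**Figure D3:**
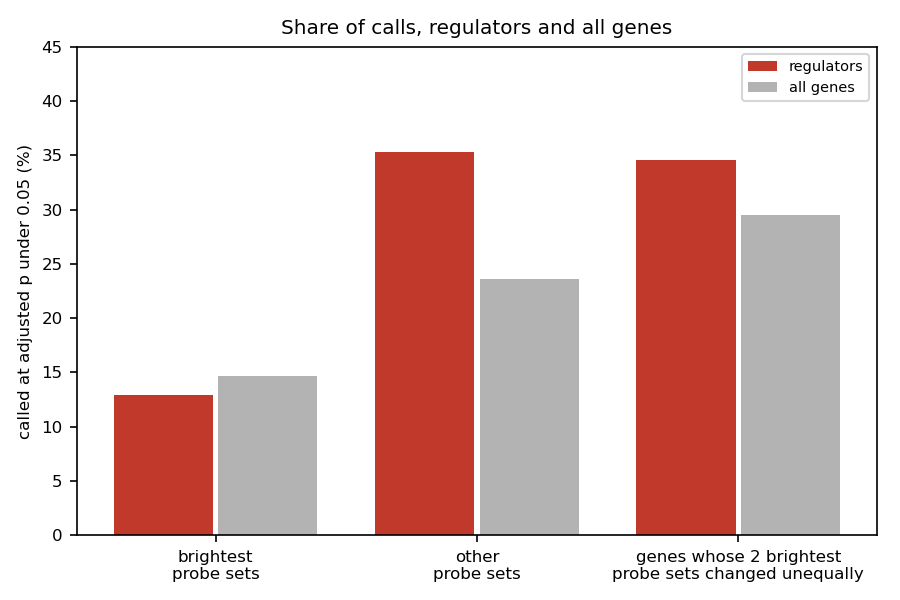
Share of calls (%) at an adjusted p under 0.05 for the regulators (red) and for all genes (grey). The bars stand at 12.9% and 14.7% for brightest probe sets, 35.3% and 23.6% for other probe sets, and 34.6% and 29.5% for genes whose 2 brightest probe sets changed unequally.

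Whether the 2 brightest probe sets of a gene changed by different amounts was tested directly, in each array, over the 9010 genes with at least 2. Of 26 regulators 9 were called unequal (34.6%, against 29.5% of all such genes). They were Suz12, Rbbp4, Rnf2, Bmi1, Pcgf5, Pcgf6, Cbx2, Cbx6 and Cbx8. The brightest minus the second was 3.43 ± 0.33 for Cbx2 (adjusted p = 0.00251), 1.30 ± 0.19 for Pcgf6 (0.00651), −1.38 ± 0.23 for Pcgf5 (0.00960) and 0.73 ± 0.11 for Suz12 (0.00699). Such a ratio shows unequal change and not which probe set reports the main transcript. The positions of the probes along each transcript were not used here. The share among regulators was near that of all genes. Without double mutant replicate 1 there were 4 unequal pairs, without wild type replicate 1 or 2 there were 5, and 7 or 10 without the other arrays.

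**Figure D4:**
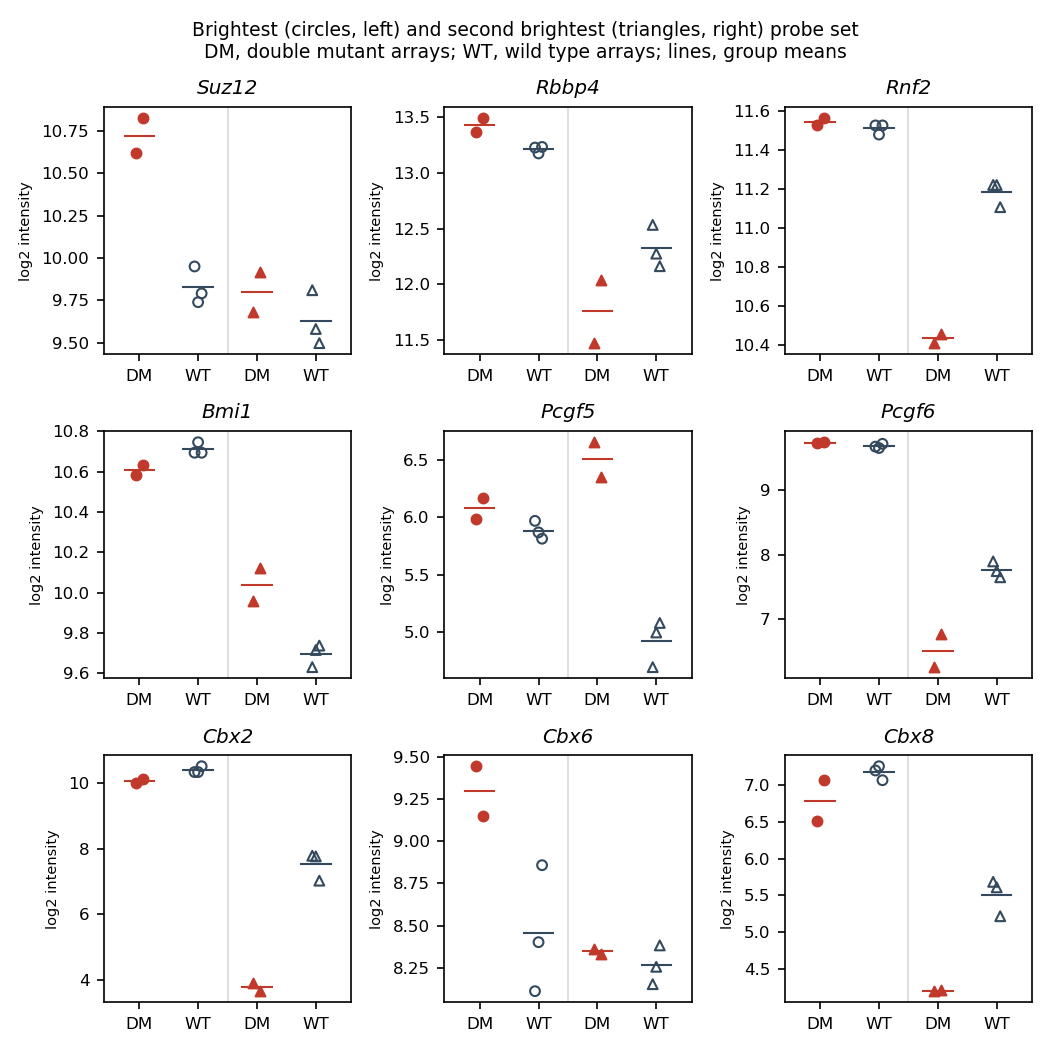
Log2 intensity of the brightest (circles) and second brightest (triangles) probe set in each array for the 9 regulators whose pair changed unequally. Filled red points are double mutant arrays (DM, n = 2), open points wild type arrays (WT, n = 3) and lines group means. For Rnf2 and Pcgf6 the circles nearly coincide between groups while the triangles are lower in double mutants, and for Suz12 and Cbx6 the gap is on the circles.

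Other genes of the same pathways were read on their brightest probe sets. Of 29 measured further Polycomb genes 2 rose and 0 fell (6.90% called, against 14.7% of all genes), with a median of −0.03. They were the deacetylase gene Hdac2 (12.43 ± 0.02 in double mutants against 12.04 ± 0.07 in wild type, SD, with adjusted p = 0.0237) and Scml2 (0.60 ± 0.10, SE, adjusted p = 0.0286). Ezh1, the paralog of Ezh2, was not called (0.49 ± 0.15, adjusted p = 0.106). Of 24 COMPASS and trithorax genes 3 rose and 3 fell (25%), with a median of 0.01. Ash2l, a core subunit of all these methyltransferase complexes, fell by −0.82 ± 0.08 (SE, adjusted p = 0.00930). Setd1b, a catalytic subunit, fell by −0.59 ± 0.07 (adjusted p = 0.0131), and Rbbp5, another core subunit, rose by 0.43 ± 0.07 (adjusted p = 0.0267). Dpy30 and Wdr82 were the other genes called higher and Crebbp the other called lower. Of 22 SWI/SNF remodelling genes 2 rose and 1 fell (13.6%), led by Smarcb1, a core subunit, at −0.52 ± 0.04 (adjusted p = 0.00853). Ss18 rose by 0.38 ± 0.05 and Smarca2, an ATPase of the complex, by 0.44 ± 0.10. Beyond the brightest, 4 rose and 8 fell of 57 other probe sets of the further Polycomb genes. For COMPASS and trithorax genes 5 of 45 others rose and 5 fell, and for SWI/SNF genes 1 of 27 rose and 3 fell. Over all genes 8.66% of such probe sets rose and 15% fell.

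Hox genes, the classic targets of both systems, were called in 7 of 33 cases (21.2%, against 14.7% of all genes), with 1 higher and 6 lower and a median of 0.03. The smallest p-values were those of Hoxd12 (−2.12 ± 0.21, SE), Hoxc5 (−0.87 ± 0.09) and Hoxd11 (−1.36 ± 0.15). Of 15 other Hox probe sets 3 were higher and 4 lower, against 8.66% and 15% of such probe sets over all genes. A list of genes picked as Polycomb-silenced, mostly of other lineages, was called in 0 of 23 cases with limma (14.7% of all genes were). Of them 1 had an unadjusted p under 0.05, and the median was 0.00. Not all were silent here, as Lhx2 averaged 9.96 ± 0.19 in double mutants and 9.88 ± 0.05 in wild type (SD). Of the 23, 20 were dimmer than the median probe set, where a change could be missed. Cdkn2a, the cell cycle inhibitor repressed by Bmi1 and Ezh2 in mouse cells, averaged 3.59 ± 0.05 in double mutants against 3.62 ± 0.22 in wild type (adjusted p = 0.905). Ezh2 and Eed follow proliferation in many cells. Of 19 DNA replication genes 0 rose and 2 fell, Mcm2 (−0.61 ± 0.08) and Cdt1 (−0.29 ± 0.05), with a median of −0.04. Of 29 other probe sets of these genes 1 rose and 5 fell.

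Some markers of other cell types differed between the genotypes beside these results. Over all genes 14.7% of brightest probe sets were called. The 5 called of 8 endothelial markers were all lower, and their summed linear intensity ran from 1567 to 1597 in double mutants and from 2167 to 2330 in wild type. The other endothelial markers, Cdh5 (−0.06), Kdr (−0.03) and Tek (−0.06), were not called. The 4 called of 9 ectoderm markers were all higher, with sums of 5678 to 5816 in double mutants and 3890 to 4345 in wild type. Krt5 (−0.38, not called) had the opposite sign. Of 11 other ectoderm probe sets 1 was higher and 1 lower. Erythroid markers were lower in 2 of 7 cases, with sums of 44398 to 49686 in double mutants and 50394 to 53876 in wild type. The globin genes Hbb-y (−0.01) and Hbb-bh1 (−0.02) were not called. Of 8 limb mesenchyme markers 1 was called, Meox2, and Prrx1 averaged 12.29 ± 0.14 in double mutants, against 12.26 ± 0.06 in wild type (SD). The sums of these 8 ran from 19092 to 19498 in double mutants and from 17862 to 18673 in wild type. Of 13 other probe sets of these genes 0 were higher and 5 lower, against 8.66% and 15% of such probe sets over all genes. Macrophage markers were lower in 1 of 7 cases, with sums of 616 to 772 in double mutants and 846 to 912 in wild type. Muscle progenitor markers were lower in 1 of 6 cases, with sums of 1195 to 1360 in double mutants and 1528 to 1682 in wild type. Of 6 other muscle probe sets 0 were higher and 2 lower. Among Schwann precursor markers 0 of 3 were called, with 0 at an unadjusted p under 0.05. In such bulk samples fewer cells of a type and less RNA per cell cannot be told apart. The part of these differences in the regulators' differences was not tested.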

How the data were processed

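The deposited values were linear intensities, 1 per probe set and array, and per the submitters' processing notes RMA and limma were used, in an order and in versions not given. RMA returns log2 values, so a step back to the linear scale is not given in the sources used here. Log2 was taken with no further normalization. Of 45101 probe sets 64 controls were left out. Genes came from the platform annotation, in which 34945 probe sets carried 1 symbol, 932 several and 9160 none. The gene identifiers of 34741 matched the reference table, which changed 0 symbols.

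The genotypes were contrasted by limma 3.58.1 (R 4.3.3), with 1 mean per genotype, empirical Bayes moderation (3 residual and 1.29 prior degrees of freedom) and Benjamini-Hochberg adjustment over 45037 probe sets. The brightest probe set of a gene had the highest mean log2 value over the 5 arrays. The difference between the 2 brightest was fitted the same way. The members and lists were chosen with earlier results of these data known. By rule, values per array are given for core subunits and for regulators with a called probe set, and from other lists the called genes with the smallest p. The values per array of Cbx6, and Ezh1, Cdkn2a, Prrx1, Xist, Eif2s3y, Uty, Dpy30, Wdr82, Crebbp, Cdh5, Kdr, Tek, Krt5, Hbb-y and Hbb-bh1, fall outside that rule and were chosen after their values were seen. Results were recomputed under 17 alternatives. On simulated data of 45037 probe sets the fit found 14% of the 1.5-fold changes, 44% of the 2-fold, 70% of the 4-fold and 88% of the 8-fold ones, and made 6 false calls. Only 50 probe sets were changed at each size, whereas 8206 were called in the data. The adjusted threshold depends on that number, so these shares do not measure what the fit can find here. Limma's p-values set each difference against the moderated spread between arrays of the same genotype.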

Additional observations from a re-analysis of the deposited data

Results flagged for a closer look

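Some signals lie outside the probe sets assigned to a single regulator. The poly-A spike-in Dap, which is no mouse transcript, was 3.79 higher (log2) in double mutants. The probe sets that carry the symbols of both Rybp and its pseudogene Rybp-ps went opposite ways, 1 at −1.69 ± 0.28 (SE, adjusted p = 0.0272) and another at 0.28 ± 0.05 (adjusted p = 0.0324). The first stood at 6.28 and 6.33 in double mutants and 8.23, 8.28 and 7.48 in wild type, and the second at 11.47 and 11.46 in double mutants and 11.16, 11.17 and 11.24 in wild type. The probe set that carries the symbols of Kdm6b and 1700064E03Rik stood at 8.12 and 8.83 in double mutants and 10.63, 10.68 and 10.15 in wild type (−2.01 ± 0.29, adjusted p = 0.0198). These probe sets were assigned to no gene.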

How the results depend on the processing

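In the fit as reported 2 regulators were higher and 2 lower on the brightest probe set, 13 probe sets were higher and 9 lower, 9 pairs were unequal, the median difference was 0.04, and of the other Polycomb, trithorax, remodelling, Hox, silenced, replication and sex-linked genes 8 were higher and 12 lower. With equal array medians the counts were 1 regulator and 2 other genes higher, and the median was −0.047. Quantile normalization gave a median of 0.083, and an intensity trend in the prior 4 regulators higher. With the Y-linked level as a covariate there were 1 regulator higher and 1 lower, 8 probe sets higher and 4 lower, and 3 other genes higher. In that fit 3874 of all 45037 probe sets were called, against 8206 in the fit as reported. With the mean 3' minus 5' value of Gapdh and Actb as a covariate limma called 0 regulators, 0 of their probe sets and 0 other genes in either direction, with 25 of 82 probe sets at an unadjusted p under 0.05. It called 0 of all 45037 probe sets in that fit, with 21.4% at an unadjusted p under 0.05. The median was then −0.030 and 1 pair was unequal. The mean of a gene's probe sets and the second brightest probe set each gave 4 regulators higher and 5 lower, and the median over second brightest probe sets was 0.010.

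The replicate block left 0 regulators higher and 1 lower, 2 probe sets higher and 4 lower, and 0 other genes higher and 1 lower. In that fit 2351 of all 45037 probe sets were called, against 8206 in the fit as reported. Same-numbered arrays deviated from their group means with correlations of 0.09 and 0.12, and nothing in the labels says that a number pairs samples. Leaving out single arrays gave ranges of 0 to 1 regulators higher and 0 to 2 lower, 0 to 7 probe sets higher and 0 to 6 lower, 0 to 4 other genes higher and 0 to 8 lower, 4 to 10 unequal pairs, and a median of 0.04 to 0.05. An arm left with 1 array was assumed to vary like the other. Single regulators turned sign with a call in either fit 6 times: by the mean probe set Aebp2 (0.59), Rnf2 (−0.76) and Pcgf3 (−0.089), and by the second brightest Rnf2 (−0.75), Bmi1 (0.35) and Pcgf6 (−1.25). The cause of these changes was not tested.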
